A study of Mus musculus with 20 samples.

Results

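The interaction of ptaquiloside with selenium was examined in natural killer (NK) cells of mouse spleen, as the ptaquiloside difference in mice that also received selenium minus the ptaquiloside difference in mice that did not. In contrast form this is (ptaquiloside+selenium minus selenium) minus (ptaquiloside minus control), and it asks which genes respond to ptaquiloside differently once selenium is given. It used 19 of the 20 arrays of the study, 1 per mouse. The array of ptaquiloside mouse 4 was left out because it was dim. All mice were male C57BL/6 animals gavaged every day for 14 days. The ptaquiloside+selenium mice received 5.3 mg/kg ptaquiloside and 1.3 mg/kg selenium (n = 5). The selenium mice received 1.3 mg/kg selenium alone (n = 5), the ptaquiloside mice 5.3 mg/kg ptaquiloside alone (4 of 5 mice used), and the control mice water (n = 5). Age and the chemical form of selenium are not given in the sources used here.

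Ptaquiloside is the toxic glucoside of bracken fern, whose breakdown product alkylates DNA. Selenium is built into selenoproteins, among them glutathione peroxidases and thioredoxin reductases, which keep the redox state of the cell. NK cells kill stressed and infected cells with granzymes and perforin and secrete interferon gamma and chemokines. Metallothioneins are small metal-binding proteins that rise with zinc and stress. The aryl hydrocarbon receptor is a ligand-activated transcription factor that controls detoxification genes together with its own repressor. Type I interferons switch on a shared set of antiviral genes.

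Levels below are log2 spot signals minus the 75th percentile of the same array, so that 0 marks the 75th percentile and 1 unit is a doubling. On the 19 arrays this percentile lay between 45.5 and 133 scanner units, lowest in ptaquiloside+selenium mouse 5, and it was 10.5 on the array left out. Every slide carried 1 mouse of each group, and the slide number equalled the mouse number on 20 of 20 arrays, so the mouse number was fitted as a block. Each group also kept the same position on every slide, and the effect of that place cannot be told apart from the treatment. The cells were isolated untouched, by removing other spleen cells. The NK marker list (11 genes tested) had 10 members well above background on all ptaquiloside+selenium arrays and on all selenium arrays, and 11 on all ptaquiloside and all control arrays. Markers of B cells were also measured, with 12, 13, 13 and 15 of 17 members above background on all arrays of the ptaquiloside+selenium, selenium, ptaquiloside and control groups in turn. In such bulk isolates fewer cells of a type and less RNA per cell cannot be told apart.

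Promoters are shown for 5 genes on whose families the results turn, as 300 bases from 250 before to 50 after the start of the gene in RefSeq, build GRCm38.p6. Capitals mark, in Ahrr and Tiparp, the letters GCGTG of the aryl hydrocarbon receptor core on either strand, which 32.4% of 32851 promoters hold. In Mt1 and Mt2 they mark the metal response core TGCACNC or TGCGCNC on either strand, held by 25.7%, and in Rsad2 the interferon element, TTTC, any 2 bases and TTTC on either strand, held by 3.44%. The same window of Oasl1, another interferon gene described here, held 0 matches to that element. Matches did not overlap within a promoter. They describe the letters only and are not binding sites shown to be used.
Ahrr, chr13:74292282-74292581, minus strand: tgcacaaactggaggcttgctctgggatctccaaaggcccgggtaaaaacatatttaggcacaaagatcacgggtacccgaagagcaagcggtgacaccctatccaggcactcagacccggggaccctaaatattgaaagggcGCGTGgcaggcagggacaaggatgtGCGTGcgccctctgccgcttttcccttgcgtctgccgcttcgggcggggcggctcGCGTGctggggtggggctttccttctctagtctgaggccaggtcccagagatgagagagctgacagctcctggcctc
Tiparp, chr3:65528197-65528496, plus strand: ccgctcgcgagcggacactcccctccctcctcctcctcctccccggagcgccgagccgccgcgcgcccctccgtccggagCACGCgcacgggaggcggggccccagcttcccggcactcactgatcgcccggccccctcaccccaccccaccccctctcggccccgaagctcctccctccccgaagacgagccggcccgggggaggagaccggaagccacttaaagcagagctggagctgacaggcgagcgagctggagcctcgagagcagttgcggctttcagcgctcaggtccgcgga
Mt1, chr8:94178839-94179138, plus strand: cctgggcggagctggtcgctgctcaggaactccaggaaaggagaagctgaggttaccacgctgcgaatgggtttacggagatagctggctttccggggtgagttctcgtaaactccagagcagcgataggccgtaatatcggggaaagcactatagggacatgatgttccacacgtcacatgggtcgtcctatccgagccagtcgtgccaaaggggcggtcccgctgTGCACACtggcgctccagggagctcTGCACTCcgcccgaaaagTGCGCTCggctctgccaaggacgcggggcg
Mt2, chr8:94172368-94172667, plus strand: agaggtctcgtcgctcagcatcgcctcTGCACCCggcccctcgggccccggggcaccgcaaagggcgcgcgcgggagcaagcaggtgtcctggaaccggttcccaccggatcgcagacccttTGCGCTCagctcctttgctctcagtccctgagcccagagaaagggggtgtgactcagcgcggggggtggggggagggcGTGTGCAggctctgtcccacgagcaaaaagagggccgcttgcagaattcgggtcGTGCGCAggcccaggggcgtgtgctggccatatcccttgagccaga
Rsad2, chr12:26456403-26456702, minus strand: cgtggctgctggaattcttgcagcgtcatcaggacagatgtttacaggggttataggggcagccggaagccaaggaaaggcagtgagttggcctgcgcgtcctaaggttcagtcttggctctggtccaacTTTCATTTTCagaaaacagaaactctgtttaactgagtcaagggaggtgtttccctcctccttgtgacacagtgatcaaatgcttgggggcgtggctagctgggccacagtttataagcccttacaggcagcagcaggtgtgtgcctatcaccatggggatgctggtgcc

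Over 17476 genes tested with limma, the interaction passed the adjusted threshold of 0.05 for none (percent called 0), and 728 genes (4.17%) had an unadjusted p under 0.05. Of these, 390 (2.23%) had an interaction above 0 and 338 (1.93%) below 0. The smallest adjusted p was 0.478 and belonged to a transcript known only as a clone, with an interaction of 2.25. Of the 2 ptaquiloside differences that make up the interaction, ptaquiloside+selenium minus selenium called 0 genes (641 at an unadjusted p under 0.05, 3.67%) and ptaquiloside minus control called 0 (414 genes, 2.37%). By chance 874 genes would be expected at an unadjusted p under 0.05, more than the interaction or either difference had. The median interaction of all genes was −0.02, with 8321 genes (47.6%) above 0 and 9155 (52.4%) below 0. Because no gene passed the test, the values that follow are described by size, spread and direction. None is a gene shown to have changed.

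The ptaquiloside difference with selenium and the one without compare groups that share no array. Both come from the same fit, in which all groups share the slide effects. Across the 17476 genes they had a Pearson r of −0.228 and a Spearman rho of −0.175, a description across genes that are not independent and that share arrays, and 43.9% of genes had the same sign in both. Of the 100 genes with the smallest p for ptaquiloside minus control, 41 had the same sign in ptaquiloside+selenium minus selenium. Their median size was 0.70 in the first difference, while the second, turned to the sign of the first, had a median of −0.09. Starting from the 100 genes with the smallest p for ptaquiloside+selenium minus selenium, 37 had the same sign without selenium. Their median size was 0.69, against −0.08 for ptaquiloside minus control turned to the same sign. Within single slides r was 0.27, 0.22 and 0.19 on slides 1 to 3 and −0.22 on slide 5, so the negative value did not hold on 3 of 4 slides. It was −0.01 without selenium mouse 5, −0.06 without ptaquiloside mouse 5, −0.08 without ptaquiloside+selenium mouse 5, −0.12 without selenium mouse 2 and −0.15 without control mouse 3. With all 20 arrays it was 0.10, and with background corrected by normexp it was −0.0031.

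**Figure D1:**
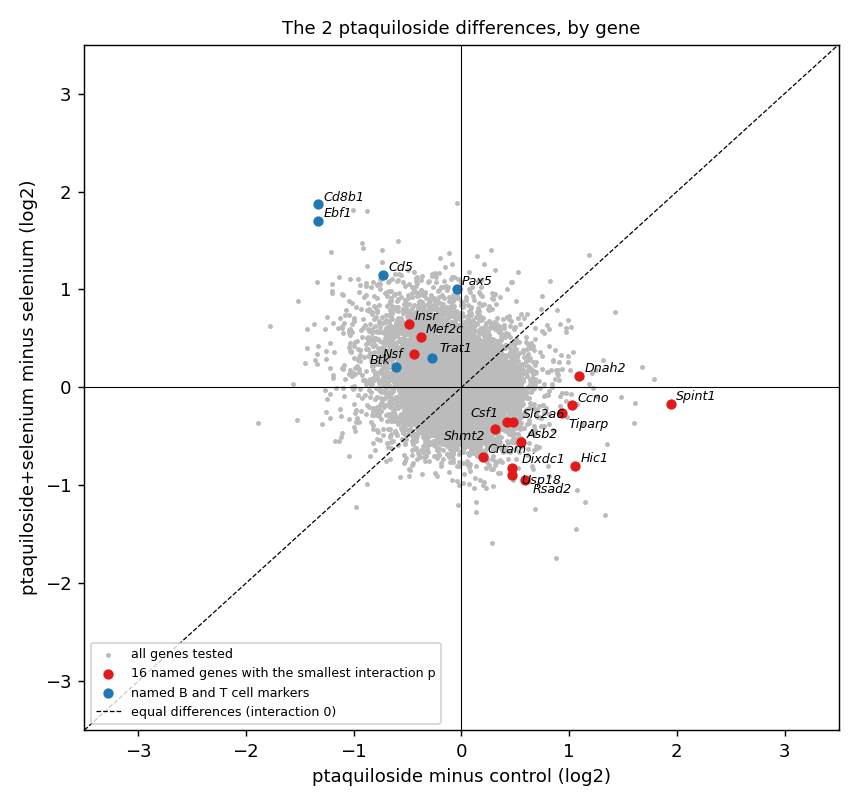
Each grey point is 1 of 17476 genes, with ptaquiloside minus control on the x axis and ptaquiloside+selenium minus selenium on the y axis, both in log2 units. Red points are the 16 named genes with the smallest interaction p and blue points named B and T cell markers. Genes below the dashed line have an interaction below 0, such as Spint1 at 1.94 and −0.17.

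The 16 genes described first had the smallest interaction p among named genes measured in every group. An interaction below 0 was found for 13 of them and above 0 for 3. Since they were chosen by that p in a fit on these slides, the opposite signs of the 2 ptaquiloside differences, seen in 15 of the 16, and the same sign within all 4 complete slides, also seen in 15, follow largely from the choice. They differ in which group stood apart. In 9 of the 13 with an interaction below 0 the control mean was the lowest of the 4 groups, and in the other 4 the ptaquiloside+selenium mean was. Each had a limma adjusted p of 0.972 for the interaction.

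Hic1, a transcriptional repressor known as a tumour suppressor, had the smallest p (probe at chr11:74978107-74978166, minus strand, mm9). Its level was 2.89, 2.37, 2.14, 1.37 and 2.15 in ptaquiloside+selenium mice 1 to 5, against 3.17, 2.89, 2.66, 2.56 and 3.65 in selenium mice 1 to 5. It was 3.31, 2.46, 1.39 and 2.19 in ptaquiloside mice 1, 2, 3 and 5, against 2.36, 1.43, 0.98, 0.20 and 0.54 in control mice 1 to 5. Selenium mice had the highest mean and control mice the lowest, and the ranges of the ptaquiloside and control groups overlapped. The interaction was −1.85 (SE 0.38), from −0.80 for ptaquiloside+selenium minus selenium and 1.05 for ptaquiloside minus control. Set directly against ptaquiloside, the ptaquiloside+selenium mice differed by 0.03, while selenium minus control was 1.88.

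Spint1, an inhibitor of membrane-bound serine proteases, showed the largest interaction of the 16 (probe at chr2:119074929-119074988, plus strand). Its level was 0.59, −1.41, −1.21, −0.91 and 0.03 in ptaquiloside+selenium mice, against −0.77, −1.12, 0.14, −0.57 and 0.24 in selenium mice. In ptaquiloside mice it was 0.15, −0.78, −2.26 and −0.36, against −1.72, −4.07, −3.20, −2.93 and −2.12 in control mice. The ptaquiloside+selenium and selenium groups overlapped, and control mice 2, 3 and 4 lay below every array of the other groups. The interaction was −2.11 (SE 0.55). It combined −0.17 with selenium and 1.94 without, and both compounds together stood 0.28 above ptaquiloside alone. Normexp background correction gave −0.69.

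Ccno, cyclin O, which multiciliated cells need to amplify centrioles, had the same shape (probe at chr13:113780810-113780869, plus strand). Levels were 0.31, 0.25, −1.16, −0.38 and −0.31 in ptaquiloside+selenium mice, against −0.19, 0.22, −0.25, −0.03 and −0.13 in selenium mice. They were 0.20, 0.14, −0.59 and −0.27 in ptaquiloside mice, against −0.41, −0.96, −1.68, −1.55 and −1.36 in control mice, where 4 of 5 arrays lay below all ptaquiloside arrays. The interaction was −1.21 (SE 0.26), with −0.18 for ptaquiloside+selenium minus selenium, 1.03 for ptaquiloside minus control and −0.09 for ptaquiloside+selenium minus ptaquiloside. Dnah2, a heavy chain of axonemal dynein, had −0.97 (SE 0.26) from 0.12 and 1.09. A second probe of Dnah2 read 0.37, in the other direction.

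Asb2, which brings substrates to a cullin ubiquitin ligase, lay at −0.27, −0.20, −0.21, −0.66 and −0.34 in ptaquiloside+selenium mice, against −0.31, 0.30, 0.16, 0.56 and 0.39 in selenium mice (probe at chr12:104559752-104559811, minus strand). Except for selenium mouse 1, every selenium array was above every ptaquiloside+selenium array. In ptaquiloside mice Asb2 lay at −0.20, 0.08, −0.25 and 0.01, against −0.43, −0.69, −0.61, −0.37 and −0.9995 in control mice, and all 4 ptaquiloside arrays were above all control arrays. Its interaction was −1.11 (SE 0.26), from −0.56 and 0.55. A second Asb2 probe read −0.91. Normexp background correction gave −0.64 for Asb2 and −0.62 for Ccno.

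Metabolic and growth genes were among the 16 as well. Slc2a6, of the glucose transporter family, had an interaction of −0.83 (SE 0.20) from −0.35 with selenium and 0.48 without. Shmt2, the mitochondrial enzyme that turns serine into glycine, had −0.73 (SE 0.19) from −0.42 and 0.31. With all 20 arrays these 2 values shrank to −0.26 and −0.34. Csf1, the growth factor of macrophages, had −0.78 (SE 0.20). Its ptaquiloside+selenium mice stood −0.60 relative to ptaquiloside mice, with levels of 1.81, 2.49, 2.23, 2.10 and 2.63 in ptaquiloside+selenium mice and 2.30, 3.07, 3.11 and 2.96 in ptaquiloside mice. Crtam, an adhesion receptor of activated NK and CD8 T cells, had −0.91 (SE 0.25), and Dixdc1, a DIX domain protein of Wnt signalling, had −1.30 (SE 0.35). In Crtam the larger share came from ptaquiloside+selenium minus selenium (−0.71, against 0.20 for ptaquiloside minus control). Dixdc1 read −0.26 with normexp background correction, and a second probe of Dixdc1 read −0.08.

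In 3 of the 16 the interaction was above 0. Insr, the insulin receptor, had levels of −4.00, −3.39, −3.59, −3.92 and −3.14 in ptaquiloside+selenium mice, against −4.19, −4.63, −3.72, −4.60 and −4.15 in selenium mice. Levels were −3.59, −3.58, −3.72 and −4.05 in ptaquiloside mice, against −3.33, −3.46, −3.31, −3.27 and −3.15 in control mice, and all control arrays were above all ptaquiloside arrays. These are dim values, above background on 4 ptaquiloside+selenium, 3 selenium, 3 ptaquiloside and 5 control arrays. The interaction was 1.13 (SE 0.28), and 0.30 with normexp background correction, and a second probe of Insr read 0.33. Nsf, the ATPase that recycles the membrane fusion machinery, had 0.78 (SE 0.21) from 0.34 and −0.44, and a second probe read 0.46. For the transcription factor Mef2c the value was 0.90 (SE 0.25), from 0.52 and −0.38. Among dimmer genes the smallest p belonged to Parp12 (−1.02, SE 0.27), an interferon-induced ADP-ribosyltransferase, Kcnj6 (1.18, SE 0.33), a potassium channel, Pax5 (1.05, SE 0.31), the B cell identity factor, and Gad1 (2.14, SE 0.66), a glutamate decarboxylase. With normexp background correction Parp12 turned to 0.03, and the other 3 shrank to between 0.20 and 0.42.

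**Figure D2:**
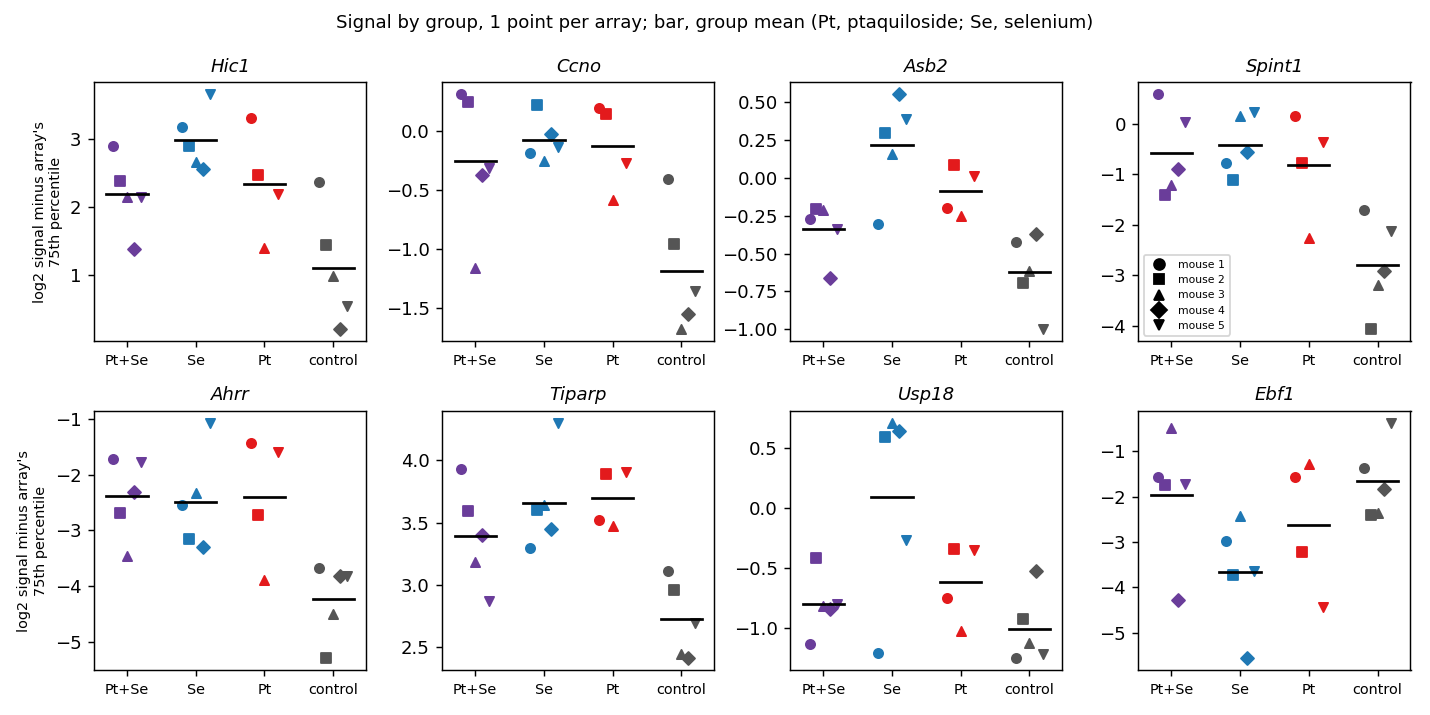
Level of 8 genes on each of the 19 arrays, as log2 signal minus the 75th percentile of the array, with 1 symbol per mouse number and a bar at the group mean. Groups run from ptaquiloside+selenium and selenium to ptaquiloside and control. In Hic1, Ccno, Asb2, Spint1, Ahrr, Tiparp and Usp18 the control mean is the lowest of the 4. The selenium mean is the highest in Hic1, Ccno, Asb2, Spint1 and Usp18, and the lowest in Ebf1.

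**Figure D3:**
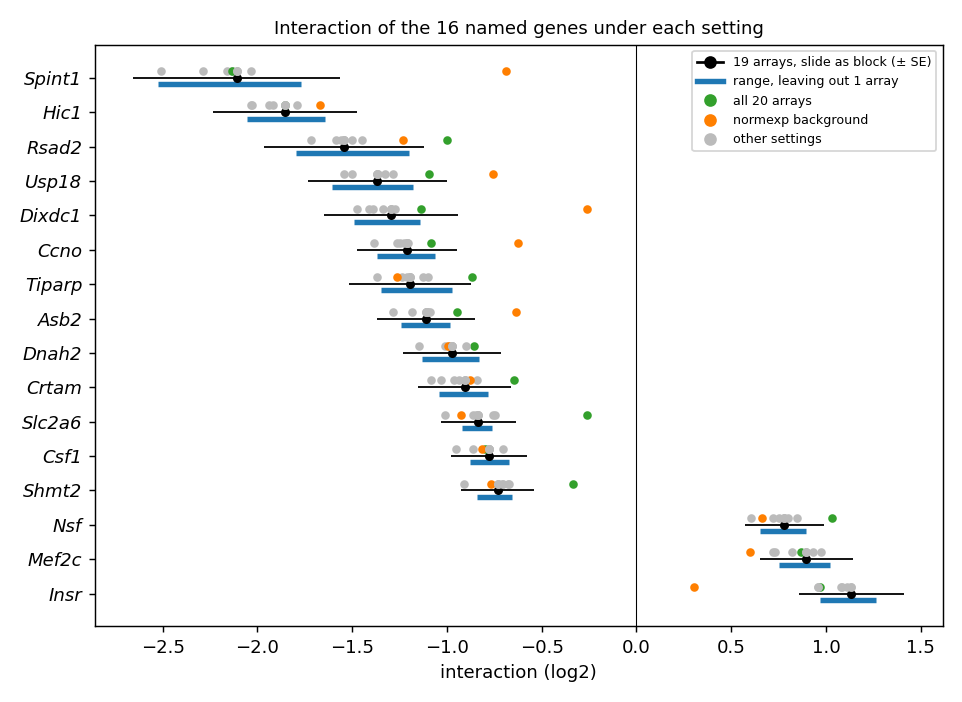
Interaction of the 16 genes in log2 units, with a black point and bar for the value and its standard error from 19 arrays, a blue bar for the range when 1 array is left out, and points for the other settings. No point crosses 0, while normexp background correction brings Spint1 from −2.11 to −0.69 and all 20 arrays bring Slc2a6 from −0.83 to −0.26.

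Among aryl hydrocarbon receptor genes, the 3 inducible members tested had interactions below 0 and the receptor's own subunits had interactions above 0. Of 9 listed genes 5 were tested. Their median interaction was −0.998, beside −0.02 for all genes, and 3 of the 5 had an unadjusted p under 0.05 with a value below 0 (1.93% of all genes did). The list median was 0.01 for ptaquiloside+selenium minus selenium and 0.44 for ptaquiloside minus control. It was 0.93 for selenium minus control and −0.02 for ptaquiloside+selenium minus ptaquiloside. The median interaction shrank to −0.09 with normexp background correction and to −0.39 over probes above background on all 19 arrays. Ahrr, the repressor of the receptor (probe at chr13:74348566-74348612, minus strand), had levels of −1.72, −2.68, −3.46, −2.30 and −1.78 in ptaquiloside+selenium mice, against −2.55, −3.16, −2.32, −3.30 and −1.07 in selenium mice. Its levels were −1.43, −2.72, −3.90 and −1.59 in ptaquiloside mice, against −3.68, −5.30, −4.51, −3.83 and −3.82 in control mice. Control was the lowest group, with ptaquiloside mouse 3 inside its range, and the other 3 groups overlapped throughout. The interaction was −1.70 (SE 0.52), with 0.09 in selenium mice and 1.79 without selenium. Ahrr was above background on 5, 5, 3 and 3 arrays of the 4 groups in the order above, and normexp background correction gave −0.09.

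Tiparp, an ADP-ribosyltransferase induced by the receptor, was bright on every array (probe at chr3:65358749-65358808, plus strand). It read 3.93, 3.59, 3.18, 3.40 and 2.87 in ptaquiloside+selenium mice, against 3.30, 3.60, 3.64, 3.45 and 4.30 in selenium mice. It read 3.52, 3.89, 3.48 and 3.91 in ptaquiloside mice, against 3.11, 2.96, 2.45, 2.41 and 2.70 in control mice, with no overlap between these 2 groups. Its interaction was −1.19 (SE 0.32), made of −0.26 and 0.93. Within slides it was 0.22 on slide 1 and −0.94, −1.49 and −2.64 on slides 2, 3 and 5. Nqo1, a quinone reductase that also answers to NRF2, had −0.998 (SE 0.40) from −0.56 and 0.44, and −0.41 with normexp background correction. The values of Ahr and Arnt, the 2 subunits of the receptor, were 0.27 and 0.22. Gsdme, a pore-forming gasdermin with one of the smallest p values for ptaquiloside minus control, had 1.25 there, 0.18 in selenium mice and an interaction of −1.07 (SE 0.36), which was −0.66 with normexp background correction. In the 9 genes with the control mean lowest among the 16, ptaquiloside+selenium minus ptaquiloside ran from −0.36 in Slc2a6 to 0.28 in Spint1.

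Metallothioneins, the genes that the study followed up at the protein level, had interactions below 0 in 3 of 4 (52.4% of all genes), and no member reached the adjusted threshold. The list median was −0.70, beside −0.02 for all genes. Within slides this median was 0.15, −0.48, −1.20 and −0.45 on slides 1, 2, 3 and 5. Mt2, one of the 2 broadly expressed members (probe at chr8:96697371-96697430, plus strand), had levels of 7.80, 4.94, 4.37, 3.80 and 5.18 in ptaquiloside+selenium mice, against 7.19, 6.04, 4.79, 5.02 and 4.91 in selenium mice. Levels were 7.44, 5.71, 6.11 and 5.25 in ptaquiloside mice, against 7.21, 5.97, 4.11, 3.22 and 4.49 in control mice. Both pairs of groups overlapped, and mouse 1 was the highest animal in every group. The interaction was −1.19 (SE 0.49), from −0.37 and 0.81. Mt1, its neighbour on chromosome 8, read 6.13, 3.51, 3.03, 2.67 and 3.94 in ptaquiloside+selenium mice, against 5.60, 4.17, 2.99, 3.43 and 4.17 in selenium mice. It read 5.35, 3.92, 5.12 and 4.58 in ptaquiloside mice, against 5.67, 3.98, 2.59, 2.64 and 3.69 in control mice, and the interaction was −1.003 (SE 0.50). Without ptaquiloside mouse 3, whose Mt1 level of 5.12 was the second highest of its group, the Mt1 value was −0.46 and the list median −0.39. Within slides Mt1 was 0.85 on slide 1 and −0.60, −2.50 and −1.11 on slides 2, 3 and 5. A second probe of Mt1 read an interaction of −0.59 (SE 0.27). Relative to ptaquiloside alone, the mice given both compounds stood −0.65 in Mt1 and −0.60 in Mt2. Mt4, known from squamous epithelium, had −0.39 (SE 0.34), and Mt3, known from brain, 0.09 (SE 0.26, adjusted p 0.976). Mt4 was −0.03 with normexp background correction, −0.17 without selenium mouse 4 and −0.71 with all 20 arrays.

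Interferon-stimulated genes had interactions below 0 in 28 of 30 tested members, beside 52.4% of all genes. The median was −0.70. An unadjusted p under 0.05 with a value below 0 was reached by 11 of the 30 (1.93% of all genes), and none had one above 0. Ptaquiloside+selenium minus selenium was below 0 in all 30 (49.9% of all genes, median −0.55), while ptaquiloside minus control was above 0 in 20 of 30 (51.9% of all genes, median 0.11). The list median was −0.15 for ptaquiloside+selenium minus ptaquiloside and 0.45 for selenium minus control. The mean over the list, centred on each gene, ran from −0.38 to 0.18 in ptaquiloside+selenium mice, against −0.27 to 0.99 in selenium mice. It ran from −0.30 to 0.33 in ptaquiloside mice, against −0.52 to 0.21 in control mice. Selenium mice 2, 3 and 4 were thus above the other 16 arrays analysed, and selenium mice 1 and 5 were not. Within slides the list median was −0.39, −0.64, −0.28 and −0.07 on slides 1, 2, 3 and 5. It was −0.45 without selenium mouse 4 and −0.36 with normexp background correction.

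Usp18, which removes the ubiquitin-like ISG15 and damps interferon signalling, had the smallest p of the list (probe at chr6:121220513-121220572, plus strand). Its level was −1.13, −0.42, −0.82, −0.84 and −0.79 in ptaquiloside+selenium mice, against −1.20, 0.59, 0.71, 0.64 and −0.27 in selenium mice. The level was −0.75, −0.34, −1.02 and −0.35 in ptaquiloside mice, against −1.25, −0.92, −1.12, −0.52 and −1.21 in control mice. The 3 high selenium arrays were again those of mice 2, 3 and 4. The interaction was −1.37 (SE 0.37), from −0.89 and 0.47, and −0.76 with normexp background correction. Rsad2, the antiviral radical SAM enzyme viperin (probe at chr12:27127859-27127918, minus strand), read 0.38, 1.15, 0.18, −0.04 and 0.31 in ptaquiloside+selenium mice, against 0.86, 2.30, 1.59, 1.70 and 0.28 in selenium mice. Rsad2 read 1.53, 1.74, 2.67 and 0.28 in ptaquiloside mice, against 0.88, 1.70, 1.31, 0.51 and 0.19 in control mice, with overlap in both pairs. Its interaction was −1.54 (SE 0.42), and 2 further probes read −0.62 and −1.38. For Rsad2 the ptaquiloside+selenium mice also stood −1.11 relative to ptaquiloside mice. The list median for this difference was −0.15. Oasl1, a 2'-5' oligoadenylate synthetase-like protein, had −1.33 (SE 0.48) from −0.62 and 0.71, and −0.90 relative to ptaquiloside. Rsad2 and Oasl1 had −0.9996 and −0.88 with all 20 arrays. Ifit1, Ifit2 and Ifit3, which bind viral RNA, had −1.30, −1.50 and −1.05. Stat2, a factor that carries the interferon signal, had −0.27, and the exceptions were Trim30a at 0.07 and Ddx58, the sensor RIG-I, at 0.12.

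Of the lists of NK cell function, the cytokine, effector and receptor lists had interactions mostly below 0, where 52.4% of all genes lay, and the lineage factor and maturation lists were nearly even. Of 17 NK cytokines and chemokines, 13 had an interaction below 0 and 2 an unadjusted p under 0.05 (4.17% of all genes), and the median was −0.35. Within slides this median was −0.24, −0.22, −0.20 and −0.04 on slides 1, 2, 3 and 5. It was −0.16 with quantile normalization and −0.20 with all 20 arrays. Ifng, interferon gamma (probe at chr10:117882841-117882900, plus strand), read 6.15, 6.41, 5.31, 4.91 and 5.09 in ptaquiloside+selenium mice, against 6.22, 7.18, 5.53, 5.32 and 5.59 in selenium mice. It read 6.42, 6.53, 5.44 and 5.44 in ptaquiloside mice, against 6.38, 6.45, 5.19, 4.48 and 4.65 in control mice, and all 4 groups overlapped. The interaction of Ifng was −0.73 (SE 0.23), from −0.40 and 0.34. Ccl3, a chemokine that draws leukocytes, had −0.53 (SE 0.25), and Lta, lymphotoxin alpha, had 0.83 (SE 0.42), in the other direction. Ccl3 was −0.23 with all 20 arrays, and Lta was 0.30 with normexp background correction. Of 20 cytotoxic effectors 15 were below 0 (median −0.25), with Gzmb at −0.71, Gzmc at −0.57 and Prf1, perforin, at −0.49. Of 32 receptors and adaptors 25 were below 0 (median −0.19). All 11 NK marker genes were below 0 (median −0.35), from Gzmb at −0.71 to the lineage factor Eomes at −0.13. On slide 1 the medians of effectors, receptors and NK markers were above 0, at 0.11, 0.51 and 0.28, and on slide 3 that of effectors was 0.29. With all 20 arrays the medians of effectors and of receptors turned to 0.12 and 0.25, and that of the NK markers was −0.11. Without ptaquiloside mouse 5 the medians of effectors, receptors and NK markers were −0.07, −0.07 and −0.21. Without ptaquiloside+selenium mouse 5 those of effectors and receptors were −0.13 and −0.05, and without selenium mouse 5 that of receptors was −0.12. NK lineage factors were above 0 in 9 and below 0 in 9 (median −0.04), and maturation and trafficking genes were above 0 in 11 and below 0 in 13 (median −0.03).

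Selenoproteins and the genes that handle selenium had values close to those of all genes. Of 26 tested members 11 were above 0 and 15 below 0, with a median of −0.04 and a range from −0.32 to 0.29. None had an unadjusted p under 0.05. Scly, selenocysteine lyase, had −0.32 (SE 0.18), and a second probe of Scly read −0.03 (SE 0.30). Selenoo, a mitochondrial pseudokinase, had −0.28 (SE 0.21), and Selenon, a protein of the endoplasmic reticulum, −0.22 (SE 0.19). The selenium-dependent peroxidases Gpx1 and Gpx4 had 0.02 and 0.0080, and Txnrd1, cytosolic thioredoxin reductase, −0.24. The wider list of antioxidant, glutathione and NRF2 genes had a median of −0.11 over 29 genes. In it Srxn1, which repairs oxidised peroxiredoxins, had −0.87, and Hmox1, haem oxygenase, −0.11 (SE 0.74).

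Genes of endoplasmic reticulum stress and amino acid shortage had interactions below 0 in 21 of 26 (52.4% of all genes), with a median of −0.32. Ptaquiloside minus control was above 0 in 22 of the 26 (51.9% of all genes), and ptaquiloside+selenium minus selenium was below 0 in 19 (49.9% of all genes). An unadjusted p under 0.05 was reached by 3 of the 26, beside 4.17% of all genes: Trib3, a pseudokinase induced by ATF4 (−1.04, SE 0.34), Ern1, the stress sensor IRE1 (−0.73, SE 0.24), and Asns, asparagine synthetase (−0.55, SE 0.21). With all 20 arrays the list median was 0.04, and without ptaquiloside mouse 1 it was −0.19. The p53 targets had a median of −0.23 (20 of 26 below 0), and 0.01 with all 20 arrays, −0.15 without ptaquiloside mouse 3 and −0.14 without ptaquiloside+selenium mouse 3. DNA repair genes, of interest because ptaquiloside alkylates DNA, had a median of −0.0041 over 29 genes with 14 above and 15 below 0. Cell cycle genes had a median of −0.10 over 35 genes. Their medians were −0.30 for ptaquiloside+selenium minus selenium and −0.24 for ptaquiloside minus control, and so of like size. Within slides the median interaction of these genes was 0.29, −0.36, −0.71 and 0.90 on slides 1, 2, 3 and 5. Medians between −0.23 and −0.0071 were found for the Bcl2 family, cytokine receptors, immediate early genes, glucocorticoid receptor targets, heat shock proteins, glycolysis, zinc transport and calcium entry genes.

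**Figure D4:**
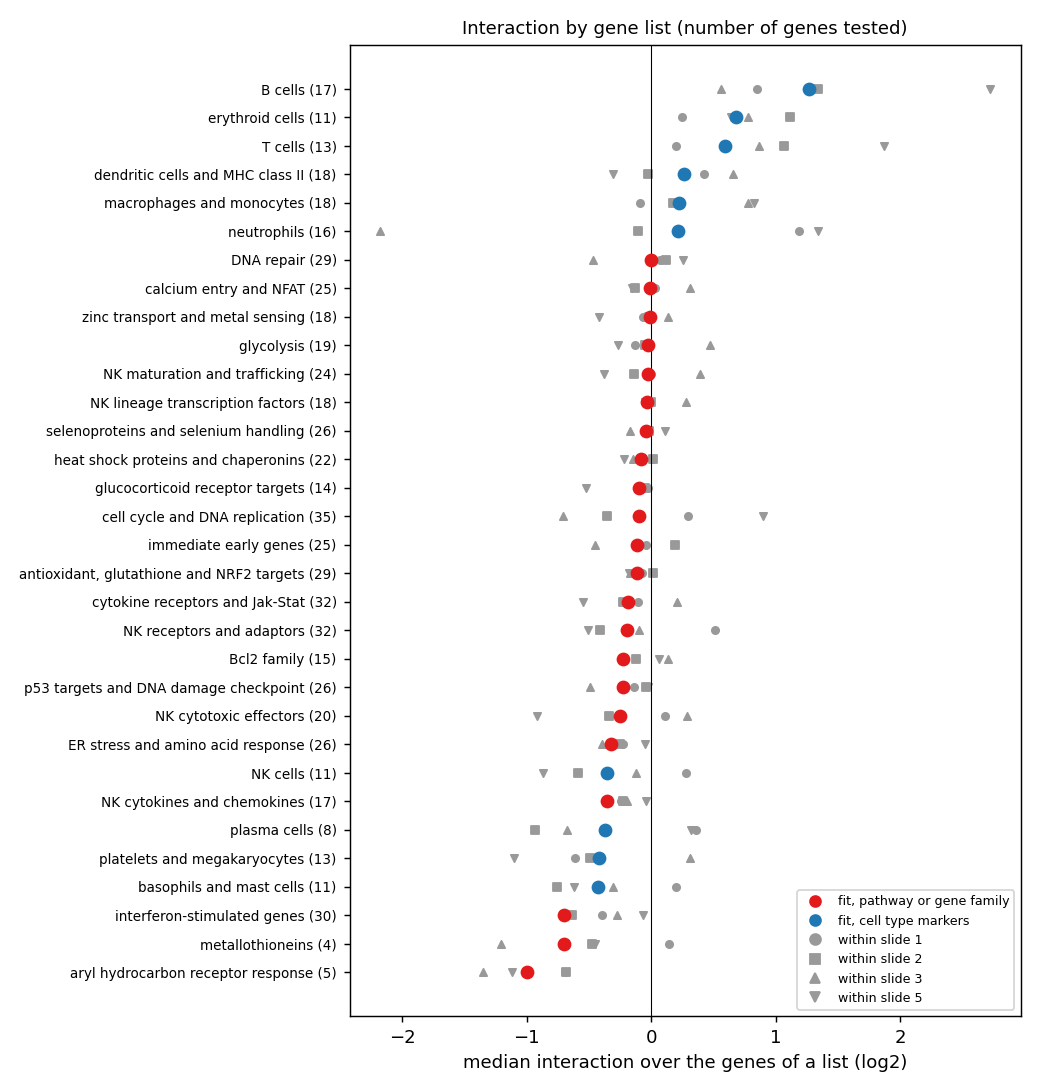
Median interaction, in log2 units, of 32 gene lists with the number of genes tested, in red for pathways and gene families and in blue for cell type markers, and in grey the same median within each complete slide. The B cell list lies highest at 1.27 and the aryl hydrocarbon receptor list lowest at −0.998, while with normexp background correction the aryl hydrocarbon receptor list has −0.09 and the interferon list −0.36. The slide medians of the neutrophil list spread from −2.18 to 1.34.

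Among markers of other spleen cells, those of B cells had the median farthest from 0 of all 32 lists. B cell markers had an interaction above 0 in 16 of 17 and an unadjusted p under 0.05 with a value above 0 in 10 of 17, beside 2.23% of all genes. The median was 1.27, from 0.67 for ptaquiloside+selenium minus selenium, above 0 in all 17 (50.1% of all genes), and −0.71 for ptaquiloside minus control, and it was above 0 on all 4 complete slides (0.85, 1.34, 0.56 and 2.72). Normexp background correction gave 0.59. The B cell list median was −0.83 for selenium minus control and 0.56 for ptaquiloside+selenium minus ptaquiloside. The list mean ran from −1.28 to 1.27 in ptaquiloside+selenium mice, against −1.02 to 0.10 in selenium mice. It ran from −1.40 to 0.86 in ptaquiloside mice, against −0.27 to 1.02 in control mice, so that single animals covered most of the range within their group.

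Ebf1, a factor that commits cells to the B lineage (probe at chr11:44818365-44818424, plus strand), read −1.57, −1.75, −0.48, −4.29 and −1.73 in ptaquiloside+selenium mice, against −2.97, −3.74, −2.42, −5.57 and −3.64 in selenium mice. It read −1.57, −3.23, −1.29 and −4.44 in ptaquiloside mice, against −1.37, −2.40, −2.36, −1.82 and −0.37 in control mice. Within each mouse number the ptaquiloside+selenium array was above the selenium array, although the groups overlapped. The lowest of these levels, down to −5.57 in selenium mouse 4, are dim values. The interaction was 3.04 (SE 0.85), and 0.73 with normexp background correction. A second, dimmer probe of Ebf1 read 3.41 (SE 0.63). Btk, the tyrosine kinase of B cell receptor signalling, had 0.81 (SE 0.24). Ms4a1, the antigen CD20, had 2.19.

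T cell markers had a median of 0.59, with 11 of 13 above 0 (47.6% of all genes) and 4 of 13 at an unadjusted p under 0.05 with a value above 0 (2.23% of all genes). Normexp background correction gave a median of 0.33, and 1.80 for Cd8b1 and 1.16 for Cd5. Cd8b1, a chain of the CD8 co-receptor, read −1.16, 1.62, 2.29, −2.30 and 0.02 in ptaquiloside+selenium mice, against −2.20, −1.31, −1.51, −2.19 and −1.66 in selenium mice. In ptaquiloside mice it read 1.15, −1.95, −0.61 and −2.42, against 0.31, −0.58, −1.33, 0.99 and 1.62 in control mice. Its interaction was 3.19 (SE 1.29), from 1.87 and −1.33, with wide overlap between groups. Cd5 had 1.87 (SE 0.76) and Trat1 0.57 (SE 0.24), while Cd3e, a chain of the T cell receptor complex, had 0.50 (SE 0.37). A second probe of Trat1 read 0.24 (SE 0.27). The T cell list mean ran from −0.50 to 0.96 in ptaquiloside+selenium mice, against −0.52 to −0.13 in selenium mice, and from −0.43 to 0.44 in ptaquiloside mice, against −0.23 to 0.74 in control mice.

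Erythroid markers had a median of 0.68 over 11 genes, 9 above 0 (47.6% of all genes) and none at an unadjusted p under 0.05. The median was 0.20 with array weights, 0.34 with normexp background correction and 0.41 over probes above background on all 19 arrays. It was 0.42 without control mouse 2, 0.43 without selenium mouse 5 and 1.08 without selenium mouse 4. Slc4a1, the anion exchanger of red cells, had 1.36 (SE 0.69), Hba-a1, an alpha globin, 1.39 (SE 0.91), and Klf1, the erythroid factor, 1.01 (SE 0.74). The list mean ran from −0.32 to 0.62 in ptaquiloside+selenium mice, against −0.67 to 0.47 in selenium mice, and from −0.75 to 0.12 in ptaquiloside mice, against −0.40 to 0.77 in control mice. Hba-a1 shares near-identical sequence with its sister gene, so its level may come from both. Dendritic cell, macrophage and neutrophil lists had medians of 0.27, 0.22 and 0.21.

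On the other side, basophil and mast cell markers were below 0 in 11 of 11 (median −0.43), platelet markers in 12 of 13 (median −0.42) and plasma cell markers in 6 of 8 (median −0.37), beside 52.4% of all genes. The basophil and mast cell median was −0.22 without selenium mouse 4, −0.24 without ptaquiloside mouse 5 and −0.23 with all 20 arrays, and 0.20 within slide 1. The platelet median was −0.26 without control mouse 5 and 0.32 within slide 3. The plasma cell median was −0.06 with all 20 arrays and −0.71 without ptaquiloside mouse 5. It was −0.22 without ptaquiloside mouse 2 or 3 and −0.23 without control mouse 3 or selenium mouse 4. Kit, the stem cell factor receptor, had −0.60 (SE 0.20), Cma1, a chymase, −0.52 (SE 0.27), and Mcpt8, the basophil protease, −0.66 (SE 0.39). Kit turned to 0.53 with all 20 arrays. Of the platelet receptor genes, Gp9 had −0.73 (SE 0.31) and Gp1bb −0.44 (SE 0.21). Gp1bb was −0.12 with normexp background correction and −0.86 with all 20 arrays. Of plasma cell genes, Derl3 had −0.78 (SE 0.43), Tnfrsf17 −0.58 (SE 0.48) and Jchain −0.44 (SE 0.39). Jchain was −0.05 with all 20 arrays, −0.21 without ptaquiloside mouse 2 and −0.78 without ptaquiloside mouse 5. The basophil and mast cell list mean ran from −0.39 to −0.09 in ptaquiloside+selenium mice, against −0.58 to 0.59 in selenium mice, and from −0.31 to 0.33 in ptaquiloside mice, against −0.45 to 0.43 in control mice. For platelets it ran from −0.65 to 0.09 in ptaquiloside+selenium mice, against −0.35 to 0.49 in selenium mice, and from −0.40 to 0.37 in ptaquiloside mice, against −0.41 to 0.34 in control mice. For plasma cells it ran from −0.75 to 0.68 in ptaquiloside+selenium mice, against −0.20 to 0.34 in selenium mice, and from −0.50 to 0.77 in ptaquiloside mice, against −0.34 to 0.36 in control mice. The part of these other cells in the values of the NK, interferon, metallothionein and receptor-response genes was not tested.

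**Figure D5:**
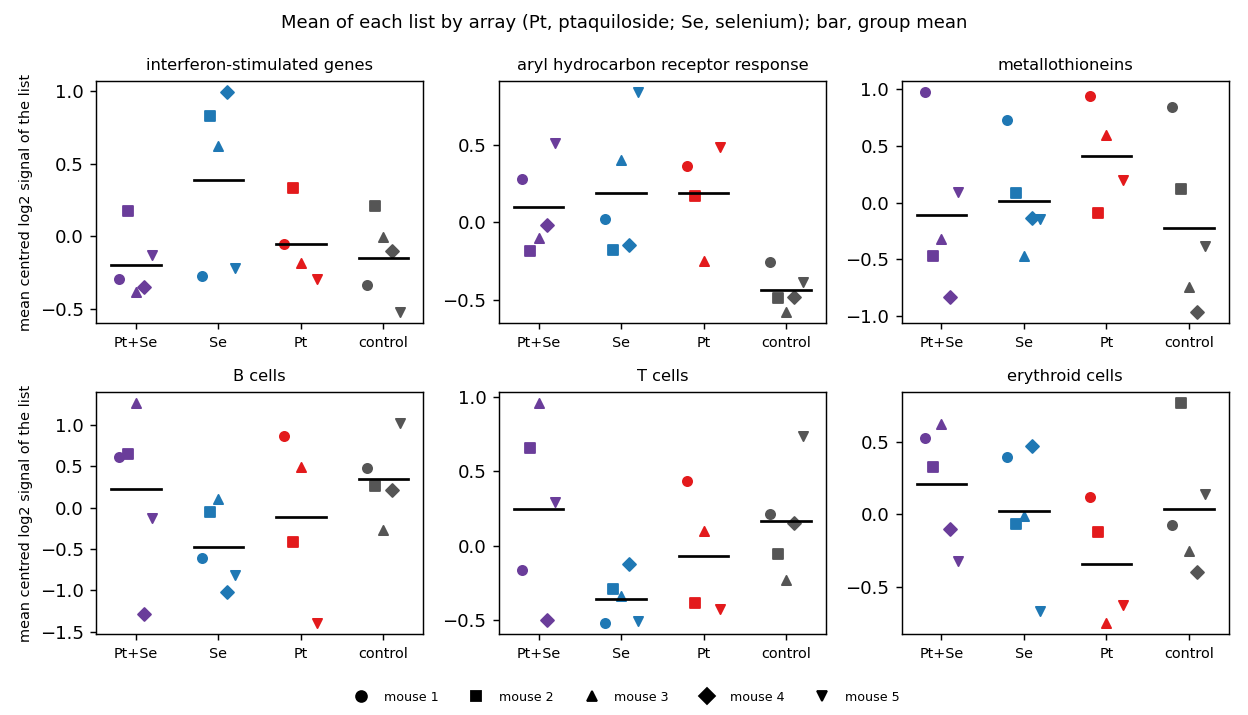
Mean over the genes of 6 lists on each of the 19 arrays, in log2 units centred per gene, with 1 symbol per mouse number and a bar at the group mean. Selenium mice 2, 3 and 4 lie at 0.62 to 0.99 in the interferon panel, above the other 16 arrays. In the aryl hydrocarbon receptor panel all control arrays lie at or below −0.26, next to the lowest ptaquiloside array at −0.25. In the B cell panel selenium mice have the lowest mean.

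Beside the interaction, the rule for named genes also gave those with the smallest p for ptaquiloside+selenium minus selenium. These were Crtam, Itih1, Pdzph1, Susd2, Cd200r3 and Cyp2c55. Itih1, a hyaluronan-binding plasma protein, had −0.65 for ptaquiloside+selenium minus selenium, 0.15 for ptaquiloside minus control and an interaction of −0.81 (SE 0.23). Cd200r3, an activating receptor of basophils and mast cells, had −0.73, −0.08 and −0.65 in the same order. Pdzph1, whose role is not described here, had −0.81, 0.07 and −0.88. Susd2, a membrane protein, had −0.62, −0.04 and −0.58, and Cyp2c55, a cytochrome P450, 0.98, 0.17 and 0.81. In these genes, apart from Crtam, the ptaquiloside difference without selenium was between −0.08 and 0.17. All 6 were chosen for their ptaquiloside+selenium minus selenium value, and normexp background correction turned Itih1 and Susd2 to 0.01 and 0.13. It shrank Pdzph1, Cd200r3 and Cyp2c55 to −0.07, −0.23 and 0.28. With all 20 arrays Cyp2c55 was 0.31.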

How the data were processed

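RNA of NK cells isolated from the spleens of 20 mice was labelled with Cy3 and hybridised to 1-colour Agilent mouse arrays. The deposited scanner files hold spot intensity, extracted with Agilent Feature Extraction 9.5.3.1 per the submitters' processing notes. The processed signal used here is background-subtracted and not scaled between arrays, per the file headers. Flag, name and position columns of unit other, per the file headers, marked control, outlier and well above background spots and gave positions on mm9. A deposited table of log2 values was not used, because some of its columns are group means.

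The log2 processed signal minus the 75th percentile of each array over non-control spots was computed. Control and outlier spots were left out, and repeat spots of a probe were averaged. A probe entered the fit if it stood well above background on 5 or more of the 20 arrays. Through their accession 25097 of 41174 probes were named in RefSeq's list of genes, and 16077 kept the name in the file. The probe with the highest mean stood for a gene. Of 17476 genes 17343 had a value on all 19 arrays. limma 3.58.1 in R 4.3.3 (with version 1.17.8 of the data.table package) fitted 1 mean per group with the mouse number as a block, with moderated variances. Its two-sided p values were adjusted by Benjamini-Hochberg, across every gene and separately for each contrast. It was tested on simulated data. Replicates are separate mice, and their number limits the precision.

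Samples with the same mouse number deviated together from their group means in 24 of 27 pairs (correlation over 0.1, median 0.43), against 33 of 108 pairs of other numbers (median −0.15). Number and slide coincide, and all arrays carry 1 scan day.

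Named genes were the 16 with the smallest interaction p measured on at least 3 arrays of every group and the 4 with the smallest p among dimmer genes. Added to these were the 6 with the smallest p for each ptaquiloside difference, and up to 3 members by p of the metallothionein, aryl hydrocarbon receptor and selenoprotein lists and of the 8 other lists farthest from the median of all genes. Names that are only a clone or accession were passed over (12, 9, 1 and 1 times). A gene that the rule gave is not reported here. Other list members given in the text were chosen after their values were seen. The members, the 32 lists (627 of 669 entries tested) and the tests were chosen with earlier results of these data known. Alternatives were the block, array weights, all 20 arrays, scaling, background correction, filters, moderation, single probes and leaving out each array.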

Additional observations from a re-analysis of the deposited data

Results flagged for a closer look

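Among 224 groups of values of the named genes, 10 held 1 array whose distance from its nearest neighbour was large for the range of the group, and chance gives about 1 in 20. Kcnj6 was −3.52 in ptaquiloside+selenium mouse 5, against −4.20 to −4.38 in the other mice of that group. Selenoo was 0.66 in the same mouse, against 1.13 to 1.31, an array whose 75th percentile was the lowest of the 19. Gad1 was −6.25 in selenium mouse 4, against −4.71 to −4.13 in the other selenium mice. Selenon was 2.69 and Gp1bb −0.50 in selenium mouse 2, against 2.16 to 2.25 and −0.96 to −0.84 in the others. Mcpt8 was −0.55 in selenium mouse 5, against 0.81 to 1.31. In the ptaquiloside group Cd200r3 was −1.44 in mouse 1 (−0.59 to −0.53 in the others), Nqo1 −1.07 in mouse 3 (−0.54 to −0.51) and Ccl3 5.79 in mouse 5 (6.75 to 6.89). Mt3 was 1.14 in control mouse 2, against 0.73 to 0.85 in the other control mice.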

How the results depend on the processing

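Under 30 alternatives no named gene passed the adjusted threshold for the interaction in 1612 values, and 1602 kept their direction. Without the replicate block, which the pairing of mice by slide bears on, 397 genes had an unadjusted p under 0.05. Of 100 leading ptaquiloside minus control genes, 31 then had the same sign with selenium, beside 44.5% of all genes. With all 20 arrays 366 genes had an unadjusted p under 0.05, and the correlation between the ptaquiloside differences was 0.0997. Mt3, Selenoo and Kit turned to −0.053, 0.18 and 0.53 with all 20 arrays. Array weights gave 1273 genes, 1 gene called for ptaquiloside minus control, and −0.064 for Mt3. With array weights 25 of 100 leading ptaquiloside+selenium minus selenium genes had the same sign, beside 46.8% of all genes. Normexp background correction gave 343 genes and turned Parp12, Itih1 and Susd2 to 0.034, 0.0071 and 0.13. Median centring shifted the median of all genes to −0.19 and Mt3 to −0.087. Leaving out 1 array gave 0 to 1 genes called, the 1 being the clone with the smallest p, without ptaquiloside+selenium mouse 4. It gave 486 to 1055 genes at an unadjusted p under 0.05 and 26 to 56 and 22 to 55 of 100 leading genes with the same sign. The extremes came without ptaquiloside mouse 3 (26 and 22, beside 42.0% of all genes) and without ptaquiloside mouse 5 (56 and 55, beside 51.1%). Mt3 ranged from −0.085 (without ptaquiloside+selenium mouse 5) to 0.25, and was −0.01 without selenium mouse 5. The cause of these shifts was not tested. The smaller medians, of selenoprotein, NK receptor, NK effector, stress, p53, cell cycle and repair lists among others, changed sign in at least 1 setting. The correlation of the 2 selenium differences, added after the data were seen, was −0.026, and −0.18 to 0.24 over all alternatives. Dim probes such as those of Ahrr and Insr were above background on only some arrays, which limits their values.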

Other observations

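Transcripts known only by a clone or accession name were unevenly spread over the interaction. They made up 56.4% of the 390 genes with an unadjusted p under 0.05 and an interaction above 0, and 21.3% of the 338 with one below 0, beside 22.8% of all genes tested. Their median interaction was 0.12, against −0.04 for genes with other names. Without ptaquiloside+selenium mouse 5, the array of lowest signal among the 19, they made up 43.5% of 407 genes above 0 and 20.1% of 648 below 0, and the medians were −0.00047 and −0.07. With median centring the medians were −0.05 and −0.22, with quantile normalization 0.06 and −0.04, and with normexp background correction 0.16 and 0.02.

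The 2 selenium differences, ptaquiloside+selenium minus ptaquiloside and selenium minus control, also compare groups that share no array. They too come from the fit with shared slide effects. Cell cycle genes had medians of 0.53 and 0.62 in these differences over 35 genes, beside 0.0047 and 0.01 for all genes. Their list mean ran from −0.13 to 0.67 in ptaquiloside+selenium mice, against −0.76 to 0.05 in ptaquiloside mice. It ran from −0.74 to 0.86 in selenium mice, against −0.73 to 0.51 in control mice. Across all genes the correlation of the 2 selenium differences was −0.026, and within slides it was 0.14, −0.02, 0.14 and −0.58 on slides 1, 2, 3 and 5.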
